A study of Mus musculus with 6 samples.

Results

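The genes described here are 9 surface proteins used to recognise mesenchymal progenitor cells, the fibroblast-like cells from which adipocytes, osteoblasts and chondrocytes arise. The set was chosen with earlier results of these data known, and its rows were taken by symbol. It holds Pdgfra, Pdgfrb, Ly6a, Cd34, Eng, Cd44, Thy1, Dlk1 and Nt5e. Of these, 8 had a row among the 16423 gene symbols of the table, and Dlk1 was not analysed here. The cells were C3H10T1/2, a mouse mesenchymal stem cell line with the capacity to become fat. Confluent cells of both groups were first kept for 2 days in an adipogenic cocktail of rosiglitazone (1 µM), IBMX (0.5 mM), indomethacin (125 nM), insulin (850 nM), dexamethasone (1 µM) and triiodothyronine (1 nM). They then had 2 days with rosiglitazone, insulin and triiodothyronine only, were transfected on day 4, and gave RNA 48 h later. The 3 siYBX1 libraries received siRNAs against Ybx1, which encodes an RNA- and DNA-binding cold-shock protein, and the labels give their genotype as YBX1 knockdown. The 3 siNC libraries received a control siRNA, and their genotype is given as WT. Both groups share the line, the cocktail and the transfection, and an undifferentiated culture is not among the 6 libraries, so the values cannot show how the markers moved during differentiation. The labels state neither how many siRNA sequences were used nor whether replicates were separate cultures, and the p-values below therefore reflect library-to-library spread that may be technical.

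The surface proteins of this group have different roles. PDGFRA and PDGFRB are receptor tyrosine kinases that bind platelet-derived growth factors and drive division and migration of mesenchymal cells. PDGFRA is a widely used mark of adipocyte progenitors in mouse fat, together with LY6A (also called SCA-1) and CD34. Endoglin, the product of Eng, is a co-receptor for TGF-beta and BMP ligands, and CD44 is the main receptor for hyaluronan. LY6A, THY1 and NT5E are held in the membrane by a lipid (GPI) anchor, and NT5E is an enzyme that makes adenosine outside the cell. DLK1, a relative of the NOTCH ligands, restrains adipogenesis in preadipocytes.

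The libraries held 31957411 to 35410308 reads in siYBX1 and 34207232 to 35299269 reads in siNC, as recovered from the steps of the deposited FPKM values (fragments per kilobase of gene, scaled to library size). Ybx1 mRNA was 62.9 ± 4.50 FPKM in siYBX1 and 133 ± 2.98 FPKM in siNC (SD, n = 3 each), so 47.3% of the control level was left. Library siNC replicate 1 stood apart from the other controls. Its reads differed from theirs with a mean chi-square over genes of 19.8 and 23.2, where the other controls gave 4.63 and the siYBX1 pairs 8.38 to 11.05. Adipocyte markers (15 of 16 with a row) summed to 3463 to 3967 FPKM in siYBX1, and to 3122 FPKM in siNC replicate 1 against 3985 and 3991 FPKM in the other controls. Most of that gap came from Fabp4 (1136 FPKM in siNC replicate 1, against 1665 and 1642 FPKM) and Adipoq (468 FPKM, against 707 and 676 FPKM). Among the controls Plin4 and Pnpla2 were highest in siNC replicate 1, and the other listed genes with a row were lowest there. Without siNC replicate 1 Eng and Cd44 were still called lower, and no other of the tested surface markers was called.

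In these cells 5 of the markers were expressed above 1 FPKM, and 2 of them, Eng and Cd44, fell in siYBX1 relative to siNC. No marker passed the test as higher. Ly6a and Pdgfrb lay lower in every siYBX1 library than in any siNC library without passing the test, and Pdgfra overlapped between the groups. Cd34, Thy1 and Nt5e were covered by few reads in both groups. In these bulk samples fewer cells of a type and less RNA per cell cannot be told apart.

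The test was limma on log2(FPKM + 1) run on genes that averaged 1 FPKM or more over the 6 libraries, and a Benjamini-Hochberg adjusted p below 0.05 over all 10341 tested genes counted as a call. Of the 8 markers with a row 5 passed the filter on low values. Among these 5, 2 fell and 0 rose, where 11.1% of all tested genes fell and 9.54% rose (20.6% either way). The median log2 fold change of the 5 was -0.14, against -0.01 for all tested genes. In 4 of the 5 every siYBX1 library lay below every siNC library, which held for 21.9% of all tested genes, while 19% lay wholly above and 40.9% were apart in either direction. With 5 genes these shares are descriptions only.

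**Figure D1:**
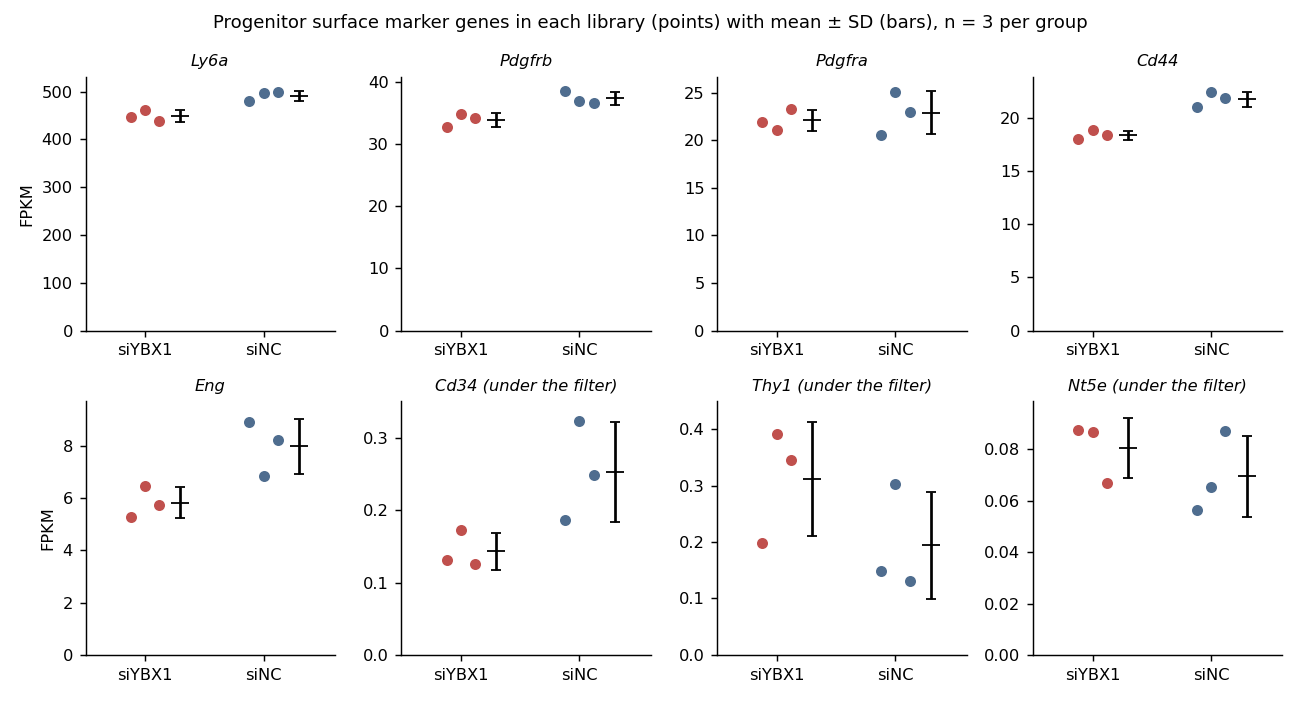
FPKM of the 8 markers with a row in each library (y axis from 0, a separate scale per gene), siYBX1 left of siNC, with points for libraries and bars for mean ± SD (n = 3). Ly6a, Pdgfrb, Cd44, Eng and Cd34 do not overlap between the groups, while Pdgfra, Thy1 and Nt5e do.

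Levels per length spanned a wide range. Ly6a was by far the most abundant, at 449 ± 12.1 FPKM in siYBX1 and 491 ± 10.3 FPKM in siNC, above 99.3% of all genes in the table in siNC. It was 13.2-fold above the next marker, Pdgfrb, in siYBX1 and 13.1-fold in siNC. Pdgfrb was 1.54-fold above Pdgfra in siYBX1 and 1.63-fold in siNC. Pdgfra and Cd44 followed at similar levels. Their ranges were apart in siYBX1, at 1.20-fold, and overlapped in siNC. Eng came next, 3.16-fold below Cd44 in siYBX1 and 2.72-fold below it in siNC. Thy1 and Cd34 were the next pair, apart in siYBX1 with Thy1 higher, and overlapping in siNC with Cd34 higher. Nt5e was lowest, at 0.0804 ± 0.0116 FPKM in siYBX1 and 0.0695 ± 0.0158 FPKM in siNC. The classical human definition of mesenchymal stromal cells rests on NT5E, THY1 and endoglin (CD73, CD90 and CD105), and in these mouse cells only Eng of these genes exceeded 1 FPKM.

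The spread between libraries differed among the markers. Within siYBX1 the coefficient of variation of FPKM was 2.29% for Cd44, 2.70% for Ly6a, 3.27% for Pdgfrb, 5.11% for Pdgfra and 10.2% for Eng. Within siNC it was 3.30% for Cd44, 2.10% for Ly6a, 2.71% for Pdgfrb, 9.81% for Pdgfra and 13.2% for Eng. The 3 markers under the filter varied by 14.4% to 32.3% in siYBX1 and by 22.8% to 48.8% in siNC.

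Eng, the co-receptor of the TGF-beta family, had the larger of the 2 falls that passed. It was 5.29, 6.47 and 5.74 FPKM in siYBX1 replicates 1 to 3, against 8.91, 6.85 and 8.24 FPKM in siNC replicates 1 to 3. The highest siYBX1 library, replicate 2, and the lowest siNC library, also replicate 2, were close, and the groups did not overlap. The means were 5.83 ± 0.595 FPKM in siYBX1 and 8.0 ± 1.1 FPKM in siNC (SD, n = 3 each), a ratio of 0.729. The log2 fold change was -0.39 (SE 0.09, 95% confidence interval -0.60 to -0.19, adjusted p = 0.0142, limma). By exact permutation (two-sided) p was 0.1, which is the smallest value possible with 3 against 3 libraries. Among the called genes that fell, 21.9% fell further. Without siYBX1 replicate 1 the call was lost (-0.34, adjusted p = 0.0562, limma), as it was with no filter on low values (adjusted p = 0.0799). Without siNC replicate 1, which had the highest value, it held at -0.32 (adjusted p = 0.0302, limma).

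Cd44, the hyaluronan receptor, fell by less but with a tighter spread. Its values were 18.0, 18.8 and 18.4 FPKM in siYBX1 and 21.0, 22.4 and 21.8 FPKM in siNC. Each siYBX1 library thus lay at least 2.19 FPKM below each siNC library. Mean levels were 18.4 ± 0.421 FPKM in siYBX1 and 21.8 ± 0.718 FPKM in siNC (SD, n = 3 each), a ratio of 0.845. The log2 fold change was -0.23 (SE 0.05, 95% confidence interval -0.35 to -0.12, adjusted p = 0.0117, limma), and the exact permutation test again gave its smallest p, 0.1. Ly6a, Pdgfrb and Cd34, whose groups did not overlap either, had the same exact p without being called. The fall of Cd44 was modest by the standard of these data, since 79.3% of the called genes that fell did so further. CD44 is made in several splice forms, which a value per gene cannot separate.

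The promoters of the 2 genes that fell are shown because YBX1 is named after the Y-box, a promoter element with an inverted CCAAT box to which Y-box proteins were first found to bind. Each line is the 250 bases before the gene start, 5′ to 3′ on the gene's strand, from RefSeq on GRCm38.p6. Eng is at chr2:32646345-32646594 on the plus strand and Cd44 at chr2:102901666-102901915 on the minus strand. Capitals would mark CCAAT or its inverse ATTGG.
Eng: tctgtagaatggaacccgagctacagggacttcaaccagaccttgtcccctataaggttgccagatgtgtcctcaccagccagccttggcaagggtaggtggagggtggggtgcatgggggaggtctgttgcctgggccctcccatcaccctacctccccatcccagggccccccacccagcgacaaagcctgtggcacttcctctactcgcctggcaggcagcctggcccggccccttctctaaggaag
Cd44: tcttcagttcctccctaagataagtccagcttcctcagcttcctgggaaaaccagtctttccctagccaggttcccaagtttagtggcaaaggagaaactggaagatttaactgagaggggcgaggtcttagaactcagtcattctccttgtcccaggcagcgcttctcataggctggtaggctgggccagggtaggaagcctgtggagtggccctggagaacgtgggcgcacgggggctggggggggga
Neither window holds CCAAT or ATTGG, so no base is in capitals. Promoters were listed for 6 of the 9 markers, and Cd34, Dlk1 and Nt5e held neither motif. The Pdgfra window held neither, but the bases checked after its start were not found in the gene's annotated transcripts, so it may not lie before the start of the transcript measured. Of all 32851 promoters listed by RefSeq, 33.8% held at least 1 of these motifs in the same window. Counted by gene, 41.4% of 8357 tested genes with a promoter held a motif in at least 1 of their promoters. The absence says only that these letters are not in these windows. The G and C content was 62.4% for Eng and 56.4% for Cd44.

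The PDGF receptors showed smaller differences. Pdgfrb was 32.7, 34.9 and 34.3 FPKM in siYBX1 and 38.6, 37.0 and 36.7 FPKM in siNC. All siYBX1 libraries lay below all siNC libraries, with means of 34.0 ± 1.11 FPKM in siYBX1 and 37.4 ± 1.01 FPKM in siNC (SD, n = 3 each). The log2 fold change of -0.14 (SE 0.05, 95% confidence interval -0.25 to -0.02) did not pass (adjusted p = 0.0811, limma). It passed when each library was rescaled to TPM (-0.19, adjusted p = 0.0378, limma) and with quantile normalization (-0.17, adjusted p = 0.0458, limma). After the correction for gene length it was smaller, at -0.08 (adjusted p = 0.226, limma). Over all tested genes the median log2 fold change was -0.061 with TPM, 0.0034 with quantile normalization and -0.011 in the main setting. Pdgfra was 21.9, 21.1 and 23.3 FPKM in siYBX1 and 20.6, 25.1 and 23.0 FPKM in siNC, so that the siYBX1 values lay inside the range of the controls. Its log2 fold change was -0.05 (SE 0.07, 95% confidence interval -0.21 to 0.11, adjusted p = 0.686, limma). The value turned positive, to 0.02, without siNC replicate 2 and after a correction for gene length, and the value was -0.12 without siNC replicate 1, which had the lowest Pdgfra (adjusted p = 0.202, limma).

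The ratio of Pdgfrb to Pdgfra asks whether the balance of the 2 receptors shifted. It was 1.495, 1.65 and 1.47 in siYBX1 and 1.87, 1.47 and 1.59 in siNC, so the groups overlapped and siNC replicate 1 was highest. On the log2(FPKM + 1) scale the mean was 0.60 ± 0.09 in siYBX1 and 0.69 ± 0.17 in siNC (SD, n = 3 each). The difference of -0.09 did not exceed the spread (exact two-sided permutation test, p = 0.6), and without siNC replicate 1 it was 0.0026.

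Ly6a, the GPI-anchored SCA-1 antigen, was 447, 462 and 439 FPKM in siYBX1 and 479.5, 497 and 498 FPKM in siNC. The groups did not overlap, and the ratio of means was 0.914. The log2 fold change was -0.13 (SE 0.06, 95% confidence interval -0.25 to -0.0045), with an unadjusted p of 0.0435 and an adjusted p of 0.126 (limma). The deposited values put Ly6a on a length of 1002 bases, and only 5.62% of tested genes were shorter. After a correction of each library for gene length Ly6a passed at -0.22 (adjusted p = 0.0107, limma), and it also passed with quantile normalization (-0.19, adjusted p = 0.0182) and with TPM (-0.18, adjusted p = 0.0247, limma). Whether Ly6a was called thus differed among these settings, and the cause was not tested.

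The markers below the filter were measured from few reads. Cd34, a sialomucin of progenitor and endothelial cells, had 11, 16 and 11 reads in siYBX1 and 17, 29 and 23 reads in siNC. That is 0.131, 0.172 and 0.126 FPKM in siYBX1, against 0.186, 0.323 and 0.249 FPKM in siNC, without overlap. In a fit without the filter its log2 fold change on log2(FPKM + 1) was -0.13 (adjusted p = 0.112, limma), a scale that understates changes at such low levels. On recovered reads limma's voom gave -0.77 (adjusted p = 0.154). Thy1, a GPI-anchored adhesion protein, had 11, 24 and 20 reads in siYBX1 and 9, 18 and 8 reads in siNC. Its log2 fold change was 0.14 without the filter (adjusted p = 0.326, limma) and 0.72 with voom (adjusted p = 0.259), and the groups overlapped. Nt5e had 10, 11 and 8 reads in siYBX1 and 7, 8 and 11 reads in siNC, with a log2 fold change of 0.01 (adjusted p = 0.604, limma, no filter). At this depth no difference could be shown for these 3 genes, and they stayed at or below 0.391 FPKM in every library of both groups.

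**Figure D2:**
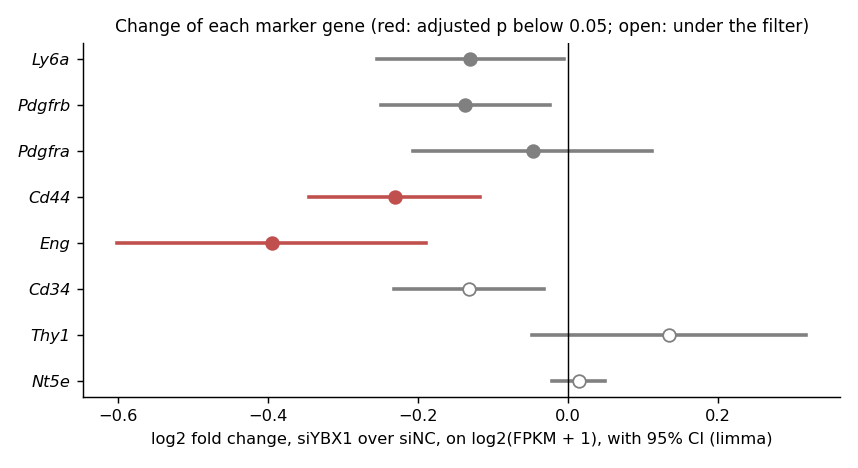
Log2 fold change of siYBX1 over siNC on log2(FPKM + 1) with its 95% confidence interval (x axis) for the 8 markers (y axis, by level in siNC), red where the adjusted p was below 0.05 and open where the gene lay under the filter. Eng at -0.39 and Cd44 at -0.23 are the red points, and the intervals of Pdgfra, Thy1 and Nt5e include 0.

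Some other genes followed Eng and Cd44 closely over the 6 libraries. Among 7327 genes averaging 5 FPKM or more, those most like Eng in log2(FPKM + 1) were Gtf3c2 (Pearson r = 0.998), Usp10 (0.997) and Lrp10 (0.997). Those most like Cd44 were Cx3cl1 (0.995), H2az2 (0.994) and Snx13 (0.993). All 6 genes were called lower, with log2 fold changes between -0.29 and -0.20. The points are the same 6 libraries, which fall into 2 groups, so any gene that moves with the groups and with siNC replicate 2 or siYBX1 replicate 2 will score high.

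Other surface protein genes of stromal cells changed in both directions. Of 27 listed, 17 were tested, 3 rose and 1 fell, and the median log2 fold change was 0.09. Beside the counts of this list and those below, 9.54% of all tested genes rose and 11.1% fell. With so few genes per list these counts are descriptions only. Itga5, the alpha chain of the fibronectin receptor, was 58.5, 61.2 and 62.3 FPKM in siYBX1 and 37.0, 31.2 and 32.8 FPKM in siNC, without overlap (log2 fold change 0.83, SE 0.07, adjusted p = 4.05e-05, limma). Itgb1, its beta chain and the stromal marker CD29, was 263 ± 2.83 FPKM in siYBX1 and 218 ± 9.33 FPKM in siNC (0.27, adjusted p = 0.00672, limma). Pdpn, the mucin-like podoplanin, was 28.9 ± 0.875 FPKM in siYBX1 and 23.0 ± 1.23 FPKM in siNC (0.32, adjusted p = 0.00379). Lrp1, an endocytic receptor that also binds PDGFRB, fell to 82.5 ± 6.65 FPKM in siYBX1, against 99.3 ± 3.42 FPKM in siNC (-0.27, adjusted p = 0.0154, limma), a call lost without siYBX1 replicate 2. A further 20 progenitor transcription factors and secreted products gave 11 tested genes, of which 2 fell and 0 rose. These were Cxcl12, a chemokine of stromal cells (-0.61, adjusted p = 0.000298, limma), and Sfrp2, a secreted WNT modulator (-0.60, adjusted p = 0.000989). Without siNC replicate 1, 4 fell.

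The ligands and receptors that work with endoglin changed in both directions. Of 26 listed, 21 were tested, 2 rose and 7 fell, with a median of -0.05. Tgfb1, a ligand, was 2.92, 3.79 and 3.59 FPKM in siYBX1 and 4.95, 4.41 and 4.94 FPKM in siNC (log2 fold change -0.38, SE 0.08, adjusted p = 0.0109, limma), without overlap between the groups. Tgfb3, another ligand, moved the other way, at 19.1 ± 1.29 FPKM in siYBX1 and 13.9 ± 0.470 FPKM in siNC (0.43, adjusted p = 0.00118, limma). So did Inhba, which encodes the activin A subunit, at 1.92 ± 0.131 FPKM in siYBX1 and 1.03 ± 0.164 FPKM in siNC (0.52, adjusted p = 0.00198). Both signalling receptors for TGF-beta were lower, Tgfbr1 at -0.26 (adjusted p = 0.0198) and Tgfbr2 at -0.21 (adjusted p = 0.0309, limma). Smad5, a transducer of BMP signals, was at -0.33 (adjusted p = 0.00314), and the BMP target genes Id1 and Id2 were at -0.37 and -0.24 (adjusted p = 0.0116 and 0.0195, limma). In the same list Id3 (-0.13, adjusted p = 0.275) and Smad1 (-0.05, adjusted p = 0.701, limma) did not pass. Nor did Bmpr1a (-0.12), Bmpr2 (-0.09), Smad6 (-0.05) or Smad7, which lay the other way (0.08). Mmp14, a protease that can release endoglin from the membrane, was at -0.20 (adjusted p = 0.0388), a call lost when any of the 6 libraries was left out. Tgfbr1 and Tgfbr2 each lost their call in 4 of the 6 cases, and Id2 in 3. The count of falls dropped to 3 without siYBX1 replicate 1, without siYBX1 replicate 2 or without siNC replicate 2, and to 1 without the filter on low values. Id1, Tgfb1 and Smad5 kept their calls without each library in turn.

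Genes around CD44 were mixed as well. Of 23 hyaluronan and CD44 partner genes 16 were tested, 1 rose and 4 fell (median -0.03). Adam10, a protease that sheds CD44 from the surface, was 18.3, 20.2 and 20.4 FPKM in siYBX1 and 28.4, 27.8 and 27.0 FPKM in siNC (log2 fold change -0.48, SE 0.06, adjusted p = 0.000481, limma), with no overlap. Hmmr, a hyaluronan-binding protein of the mitotic spindle, was at -0.37 (adjusted p = 0.00333), the proteoglycan gene Vcan at -0.29 (adjusted p = 0.0260, limma) and Tnfaip6, which links hyaluronan chains, at -0.38 (adjusted p = 0.0482). The groups overlapped for Tnfaip6, and its call was lost in 5 of the 6 cases with a library left out and that of Vcan in 3. Cemip2, a cell-surface protein linked to hyaluronan turnover, rose to 9.73 ± 0.654 FPKM in siYBX1, against 7.80 ± 0.388 FPKM in siNC (adjusted p = 0.0124, limma). The hyaluronan synthase Has2 (0.17, adjusted p = 0.0867) did not pass. Without siYBX1 replicate 2, siNC replicate 2 or siNC replicate 3, and likewise without the filter, the falls numbered 2. Among 7 tested genes for RNA-binding proteins known to act on the choice of CD44 exons, Hnrnpl was called besides Ybx1 itself (-0.18, adjusted p = 0.0380, limma), and it was lost when any of the 6 libraries was left out.

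Of 17 PDGF ligand and signalling genes listed, 15 were tested, 1 rose and 1 fell, with a median of -0.01. Among all tested genes 20.6% were called in either direction. Src, a kinase recruited to activated PDGF receptors, was 17.1 ± 0.633 FPKM in siYBX1 and 13.9 ± 0.485 FPKM in siNC (0.28, adjusted p = 0.00639, limma). Cbl, a ubiquitin ligase that directs these receptors to degradation, was at -0.20 (adjusted p = 0.0405), a call lost when any of the 6 libraries was left out. Rises numbered 3 without siNC replicate 2 and 2 without siYBX1 replicate 1. The ligand genes Pdgfa (0.14, adjusted p = 0.197) and Pdgfc (-0.01, adjusted p = 0.967, limma) did not pass.

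Among genes of the Ly6 family and the GPI anchor 12 of 21 were tested, 3 rose and 1 fell (median -0.03). Plaur, the GPI-anchored urokinase receptor, was 13.9, 16.4 and 13.2 FPKM in siYBX1 and 9.0, 8.14 and 8.94 FPKM in siNC, without overlap (0.67, SE 0.08, adjusted p = 0.000456, limma). Pgap2, which remodels the lipid of GPI anchors, was 2.06 ± 0.215 FPKM in siYBX1 and 3.08 ± 0.147 FPKM in siNC (-0.42, adjusted p = 0.00405). Cd59a, a complement inhibitor, was at 0.28 (adjusted p = 0.0490) and the Ly6a paralog Ly6c1 at 0.24 (adjusted p = 0.0386, limma), and these calls were lost in 5 and 4 of the 6 cases with a library left out. Rises numbered 1 without siYBX1 replicate 2, siYBX1 replicate 3 or siNC replicate 1, 1 rose without the filter, and 1 rose and 2 fell with TPM. Ly6a and the Ly6c genes are similar in sequence, and how shared reads were assigned is not given in the sources used here. Ly6c2, singled out after its values were seen, was 14.6, 9.68 and 10.1 FPKM in siYBX1 and 1.046, 33.1 and 1.73 FPKM in siNC. Its control libraries thus spanned both the lowest and the highest value, and Ly6c levels are uncertain.

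The remaining partner lists were small. In the CD34 and sialomucin list Cd164, an endolyn sialomucin, was 86.4, 89.1 and 87.7 FPKM in siYBX1 and 123, 119 and 117 FPKM in siNC, without overlap (-0.44, SE 0.05, adjusted p = 0.000322, limma), 1 of 2 tested. Of 7 tested THY1 ligand genes Itga5 was the only call. In the list around NT5E and adenosine 9 genes were tested, 3 rose and 1 fell (median 0.18). Adora2b, an adenosine receptor, was 1.44 ± 0.121 FPKM in siYBX1 and 0.822 ± 0.0388 FPKM in siNC (0.42, adjusted p = 0.00348), and Pnp, a nucleoside phosphorylase, was at 0.34 (adjusted p = 0.0119, limma). Ada also rose (0.27, adjusted p = 0.0472, limma), a call lost without siYBX1 replicate 2 or 3 and without siNC replicate 2 or 3. Slc29a1, a nucleoside transporter, was at -0.21 (adjusted p = 0.0152), a call lost without siYBX1 replicate 1, and only 1 gene rose without siYBX1 replicate 2, where Pnp was lost, or without the filter. In the list around DLK1, Notch3 (-0.43, adjusted p = 0.00414) and Notch1 (-0.29, adjusted p = 0.0213, limma) fell among 8 tested. Notch1 was lost without siYBX1 replicate 1, siYBX1 replicate 2 or siNC replicate 3.

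**Figure D3:**
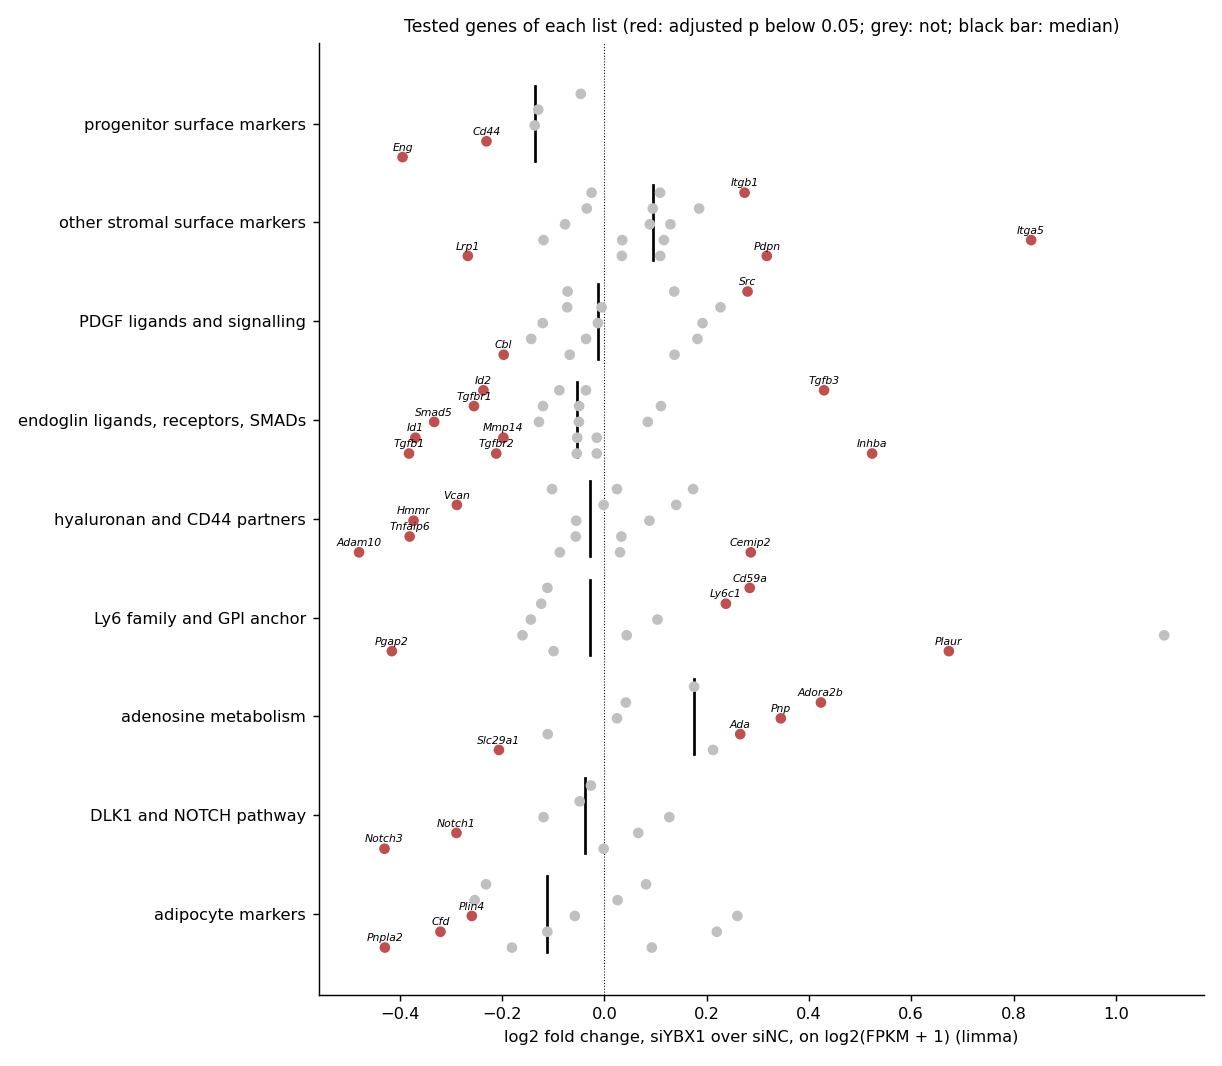
Log2 fold change of siYBX1 over siNC (x axis) for every tested gene of 9 lists (y axis), red and named where the adjusted p was below 0.05, with a black bar at each list's median. The surface markers lie at or left of 0 with a median of -0.14, while other stromal surface genes have a median of 0.09.

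Markers of other cell types were examined beside the panel, since Eng, Cd34 and Cd44 are also made by endothelial cells and leukocytes. In the endothelial list 7 of 11 genes had a row, and Pecam1, Kdr, Tek, Vwf and Esam were each at most 0.0693 FPKM in every library. The other 2 were expressed. Flt1, a VEGF receptor, was 0.858 to 0.924 FPKM in siYBX1 and 0.680 to 1.051 FPKM in siNC. Egfl7 made up most of the list's sum of 17.0 to 19.1 FPKM in siYBX1 and 17.9 to 22.5 FPKM in siNC, with a log2 fold change of -0.18 (adjusted p = 0.190, limma), and it was called lower without siNC replicate 1. In the leukocyte list 8 of 10 had a row, and Ptprc and Adgre1 were at 0 in all siYBX1 libraries and at most 0.00965 FPKM in siNC. The leukocyte sum was 11.3 to 17.2 FPKM in siYBX1 and 15.9 to 29.5 FPKM in siNC, nearly all from Cd68 and Cd14, with the highest value in siNC replicate 1. Cd68 was at -0.69 (adjusted p = 0.0681, limma), and it was called lower without siNC replicate 2. With TPM and with voom 1 of the 2 tested leukocyte genes was called lower. Pericyte and myofibroblast genes summed to 1728 to 1793 FPKM in siYBX1 and 506 to 556 FPKM in siNC, mostly from Acta2, while Rgs5, Kcnj8, Abcc9 and Cnn1 were at most 0.1396 FPKM in every library. Of the 5 tested, 3 rose (Acta2, Tagln and Actg2) and Notch3 fell. Des did not pass (-0.13, adjusted p = 0.416, limma). Myh11, under the filter, lay the other way, at 0.0751 to 0.112 FPKM in siYBX1 and 0.125 to 0.142 FPKM in siNC. Of 4 tested osteoblast and chondrocyte genes Dmp1 (-0.51), Runx2 (-0.39) and Sox9 (-0.32, adjusted p = 0.0449, limma) fell, and Sox9 was lost without siNC replicate 1 or any siYBX1 library. Over all tested genes 11.1% fell and 9.54% rose. Of 13 tested adipocyte genes 3 fell (Pnpla2 at -0.43, Cfd at -0.32 and Plin4 at -0.26) and 0 rose. The number of falls ran from 2 to 6 with a library left out, the highest without siNC replicate 1, and 1 gene rose without siNC replicate 2. It was 1 without the filter, 6 with TPM and 5 with quantile normalization. Plin4 lost its call in 4 of the 6 cases and Cfd in 2. Rises of Acta2, Tagln and Actg2 and falls of some adipocyte genes thus moved with the lower Eng and Cd44. Their part in the result was not tested.

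**Figure D4:**
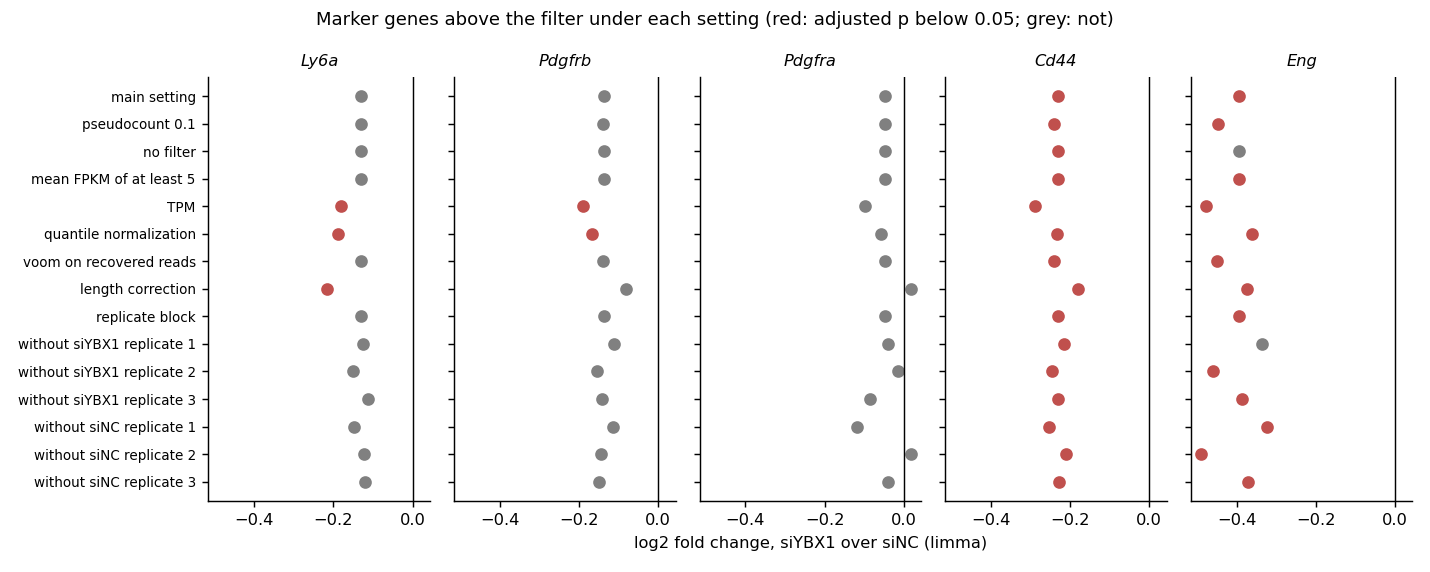
Log2 fold change (x axis) of the 5 markers above the filter under the main setting and 14 others (y axis), red where the adjusted p was below 0.05. Cd44 is red throughout, Eng in all but 2 of the others, Ly6a in 3, Pdgfrb in 2 and Pdgfra in none.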

How the data were processed

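The authors deposited 1 table of FPKM values with 6 columns, matched to the siYBX1 and siNC libraries by name and number. Tools named in the submitters' processing notes are fastp, HISAT2 and HTSeq, and the build is GRCm39. Versions, annotation and strandedness are not given in the sources used here. Per the labels' protocols, each library was made from 1.3 µg of total RNA extracted with Trizol.

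Library totals and whole reads were recovered from the steps of the FPKM values, within 0.02 reads, for all 16423 genes. With these totals 1 read on 2 kb is worth 0.0141 to 0.0156 FPKM. Low values are limited by counting error.

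Genes averaging 1 FPKM or more were tested two-sided with limma (version 3.58.1, under R 4.3.3), on log2(FPKM + 1), with limma's intensity trend and no covariate. Fold changes on this scale understate changes of low genes. Markers under the filter were taken from a fit without it. The procedure was tested on simulated data. The reads simulated for limma had the same spread in every library and no changed gene with a fold as small as that of Cd44. That test thus covers neither a library that stands apart nor so small a change. Promoter sequences were matched by symbol to RefSeq (GRCm38.p6), another build than that in the notes.

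From each list up to 2 called rises and 2 called falls were named, or the 2 most abundant genes where none passed, and some other called or tested genes were added after their values were seen. For each called marker the 3 most correlated genes were taken. The members and lists were chosen with earlier results of these data known. Other steps used numpy 2.4.6, scipy 1.17.1 and pandas 2.3.3 under Python 3.11.15.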

Additional observations from a re-analysis of the deposited data

How the results depend on the processing

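The 14 alternatives were another pseudocount (0.1), no filter, a filter at 5 FPKM, TPM, quantile normalization, voom on recovered reads, a length correction, a replicate block and leaving out each library. Cd44 was called in all 14, with log2 fold changes from -0.29 to -0.18. Without siYBX1 replicate 1 its adjusted p was 0.0499 (limma), just under the threshold. Eng was lost without a filter (-0.39, adjusted p = 0.0799, limma) and without siYBX1 replicate 1, and its values ran from -0.49 to -0.32 over the libraries left out. Ly6a gained a call with TPM (-0.18), quantile normalization (-0.19) and the length correction (-0.22), and Pdgfrb with TPM (-0.19) and quantile normalization (-0.17). Pdgfra turned positive after the length correction (0.018) and ran from -0.12 to 0.019 over the libraries left out. For these 4 genes the cause was not tested. The number of markers called lower was 1 without a filter, 4 with TPM, 4 with quantile normalization and 1 to 2 with a library left out. Of all 10341 tested genes, 1145 were called lower in the main setting, 1573 with TPM and 1070 with quantile normalization. With a library left out 604 to 1056 were called lower, and without a filter 664 of 16423. The difference in the log2 ratio of Pdgfrb to Pdgfra ran from -0.16 to 0.0026 over the libraries left out. Over all genes 2132 were called, 1241 without a filter, and 1199 to 2026 with a library left out. Higher calls made up 46.3% of these (987 higher, 1145 lower) and 29.6% with TPM (662 higher, 1573 lower). With the replicate block 1346 were called, and Cd44 (adjusted p = 0.0400) and Eng (0.0333, limma) stayed called. Same-numbered libraries deviated from their group means with correlations of -0.31, -0.13 and -0.25, and libraries of unlike number with -0.13 to 0.26. Deviations sum to 0 within a group, so these values are tied to each other. They cannot decide whether the numbers pair the samples. For the partner lists 379 counts stayed within 1.5 times and 69 moved further. The 379 include many counts of 0 that stayed at 0. Depth limits Cd34, Thy1 and Nt5e, which had 7 to 29 reads per library.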
